A study of Glycine max with 20 samples.

Results

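The genes described here are the neighbours of the alpha-subunit locus of soybean (Glycine max) on chromosome 20, which encodes the alpha-subunit of the seed storage protein beta-conglycinin. Members were chosen by their identifiers and a minimum of counts. The rule uses no difference between the lines, but it was set with earlier results of these data known. It takes every id between GLYMA20G28000 and GLYMA20G29999 by the number after the last G, with 100 or more counts summed over the 20 libraries. Left out are the 4 cupin genes GLYMA20G28460, GLYMA20G28640, GLYMA20G28650 and GLYMA20G28660. Of 177 such ids in the tables, 132 met the count minimum, 45 did not, and 9 of those 45 had 0 counts in every library. The members nearest to the minimum were GLYMA20G28353 with 113 counts, GLYMA20G28280 with 114 counts and GLYMA20G29480 with 124 counts, and the ids just below it were GLYMA20G29490 with 96 counts, GLYMA20G28100 with 84 counts and GLYMA20G29310 with 83 counts. The 132 members belong to the 57274 genes of the series, and all 132 were among the 40721 genes tested.

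Beta-conglycinin is a vicilin-type globulin built from alpha, alpha-prime and beta subunits, which cotyledon cells make and store during seed filling and which are broken down at germination. In the naming used by the tables, the number in a soybean gene id runs along the chromosome, so that neighbouring numbers are neighbouring genes. A near-isogenic line is made by repeated backcrossing to 1 parent and keeps a stretch of donor chromosome around the selected gene, so the genes next to that gene can also carry donor alleles. The study describes its line as keeping 1 donor stretch, on chromosome 20. How far that stretch reaches along the ids was not determined here, and no member is annotated in the sources used here, so members are described by id and ordered by their number.

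Developing seeds of cgy-2-NIL were compared with those of DN47 at 5 stages counted in days after flowering (DAF): 18 and 25 DAF, then 35 and 50 DAF, and last 55 DAF. Each line had 2 libraries per stage. The line cgy-2-NIL carries the cgy-2 allele from a donor in the background of cultivar DN47 and lacks the alpha-subunit, and DN47 is the recurrent parent with every storage protein subunit. Seeds of 1 age, with cotyledon and seed coat together, were pooled, so fewer cells of a type and less RNA per cell cannot be told apart in any value below. Several sister lines were derived in the study, and the labels do not say which of them gave the seeds.

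The libraries held 20981632 to 30555808 counts in cgy-2-NIL and 18492047 to 24916180 counts in DN47. The alpha-subunit gene GLYMA20G28660 had 1 to 8 counts in the cgy-2-NIL libraries of 25 to 50 DAF, against 682 to 3825 counts in the DN47 libraries of these stages. The other alpha-subunit gene, GLYMA20G28650, had 115 to 404 counts in these cgy-2-NIL libraries, against 1628 to 5494 counts in the DN47 libraries. Both were lower in cgy-2-NIL, which the study reports as well. At 55 DAF the lines stood apart over the whole transcriptome. The summed level of 6 storage protein genes outside the window (5 glycinin genes and the alpha-prime subunit gene) was 6179 and 5092 RPKM (reads scaled to the length of the gene and to the total of the library) in cgy-2-NIL at 55 DAF, against 45374 and 40377 RPKM in DN47. At 25 DAF the sum was 8990 and 2921 RPKM in cgy-2-NIL, against 26243 and 12861 RPKM in DN47, also without overlap. The part of this in the 25 and 55 DAF results of single members was not tested.

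The first question was how many neighbours of the locus differed between the lines. A gene was called where the adjusted p of edgeR's quasi-likelihood test was under 0.05, with Benjamini-Hochberg adjustment over all genes tested. Fold changes and log2 differences are those of the fit, which scales the libraries by TMM factors, so they can differ a little from ratios of the RPKM printed beside them. The first and the second library of a group are its replicates 1 and 2. Across stages, by the line term of a model of line plus stage, 24 of the 132 members differed. This was 18.2% of the members against 13.5% of all genes tested. In that term stages with more counts weigh more, so it is not a plain mean of the stage differences. Of the 24, 14 were higher in cgy-2-NIL (7.65% of all genes tested) and 10 were lower (5.9% of all genes tested). By stage, 7 members were called at 18 DAF (5.3%, against 1.19% of all genes), 21 at 25 DAF (15.9%, against 8.07%) and 27 at 35 DAF (20.5%, against 14.7%). At 50 DAF 25 members were called (18.9%, against 16.4%), and at 55 DAF 63 members (47.7%, against 46.1%). The share of members was therefore above that of all genes at the younger stages and close to it at 50 and 55 DAF. At 18 DAF 2 of the 7 were higher in cgy-2-NIL (0.383% of all genes) and 5 lower (0.803%), whereas at 55 DAF 35 were higher (21.8% of all genes) and 28 lower (24.4%). The counts at the first 4 stages depended on single libraries. At 35 DAF 8 members were called without the first cgy-2-NIL library (4.32% of all genes) and 10 without the first DN47 library (4.71% of all genes), and at 50 DAF 15 without the second cgy-2-NIL library (6.17% of all genes). Without the first DN47 library of the stage 4 members were called at 18 DAF (0.165% of all genes) and 4 at 25 DAF (0.513% of all genes). The share of members was above that of all genes in each of the 32 alternatives at each of these 4 stages. At 55 DAF it was below it in 4 of 32. Most of these alternatives reuse the same libraries, so they are not independent of each other. The 7 calls at 18 DAF include GLYMA20G29000 and GLYMA20G29500, which met the minimum of counts through DN47 alone. In the fit to the 4 libraries of 50 DAF the share rested on 1 member (0.962%, against 0.232% of all genes).

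At least 1 stage was called for 85 members (64.4%, against 59.6% of all genes). By the number of stages called, 47 members had 0 (40.4% of all genes), 47 had 1 (38.5% of all genes) and 25 had 2 (16.2% of all genes). A further 7 members had 3 stages (4.22% of all genes), 5 had 4 (0.688% of all genes) and 1, GLYMA20G29500, had all 5. Being called at all 5 stages applied to 0.0663% of all genes tested (27 genes). The sign of the log2 difference (cgy-2-NIL minus DN47) was the same at all 5 stages in 20 members, 10 in each direction, which was 15.2% of members against 13.0% of all genes. In 6 members the 2 libraries of each line did not overlap at any stage and lay on the same side throughout, which was 4.55% of members against 2.31% of all genes. GLYMA20G29520 and GLYMA20G29590 were on the higher side in cgy-2-NIL, and GLYMA20G29100, GLYMA20G29500, GLYMA20G29820 and GLYMA20G29920 on the lower side. All 6 of these ids lie on 1 side of the locus, above number 29000.

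Along the id order, members that differed across stages were few on both sides of the locus itself and frequent at the upper end of the window. Between 28000 and 28499, 2 of 32 members were called (6.25%), and between 28500 and 28999, the step that holds the alpha-subunit genes, 1 of 36 (2.78%). Between 29000 and 29499 the count was 5 of 27 (18.5%), and between 29500 and 29999 it was 16 of 37 (43.2%), against the 13.5% of all genes. The 5 include GLYMA20G29000 (42 counts in cgy-2-NIL, 1072 in DN47) and GLYMA20G29480 (91 counts in cgy-2-NIL, 33 in DN47). With both lines at the level of the lower one, each of these members would miss the minimum of counts. Whether the share between 29000 and 29499 stays above that of all genes without them was not tested. In steps of 1000 numbers, 3 of 68 members (4.41%) were called below 29000 and 21 of 64 (32.8%) from 29000 on. In steps of 250 numbers, the 16 members between 28500 and 28749 held no call across stages (0 with an adjusted p under 0.05 by edgeR), whereas 8 of 21 between 29500 and 29749 and 8 of 16 between 29750 and 29999 did.

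**Figure D1:**
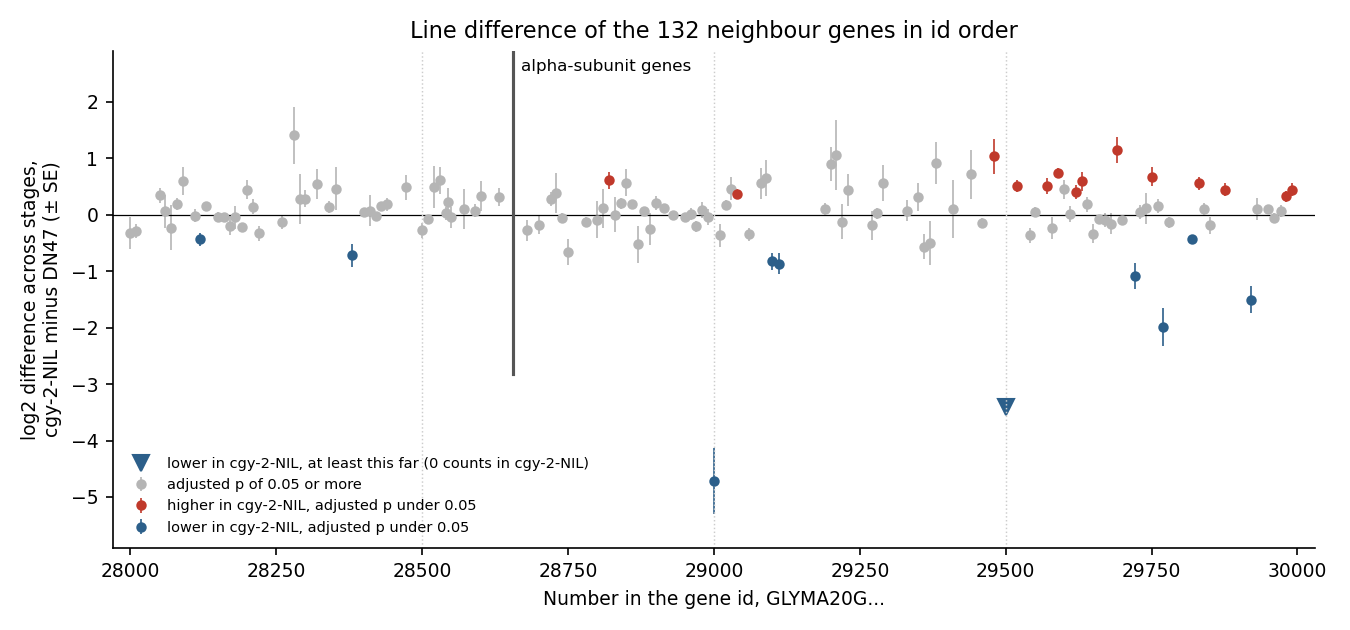
Line difference of the 132 members across the 5 stages, against the number in the gene id. Values are the log2 of cgy-2-NIL over DN47 with its standard error, from the model of line plus stage. Red and blue points had an adjusted p under 0.05 and were higher or lower in cgy-2-NIL, grey points did not, the vertical line marks the alpha-subunit genes, and the triangle is the limit for GLYMA20G29500, which had 0 counts in cgy-2-NIL. Coloured points are sparse below 29000 (3 of 68) and dense above 29500 (16 of 37).

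Beyond the window the share was lower again. The steps next to it on the upper side, 30000 to 30499 and 30500 to 30999, each held 4 called genes of 35 (11.4%), and the steps on the lower side, 27000 to 27499 and 27500 to 27999, held 5 of 29 (17.2%) and 2 of 22 (9.09%). Over the 41 steps of chromosome 20 with 20 or more genes tested, the share called across stages had a median of 12.5%. The step from 29500 had the highest share at 43.2%, and the next step had 26.5%. Ranking such steps over all chromosomes was added after the values were seen: of 947 steps with 20 or more genes tested, with a median of 13.9%, the step from 29500 ranked 1, the step from 29000 ranked 222, and the steps from 28000 and 28500 ranked 858 and 927. This is a description of ids grouped by number, with no test. Under 29 other settings of the fit, 11 to 16 of the 37 members from 29500 on were called and their share of members tested stayed above that of all genes in every setting. The share of the steps from 28000 and from 28500 stayed below it in every one of these settings.

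**Figure D2:**
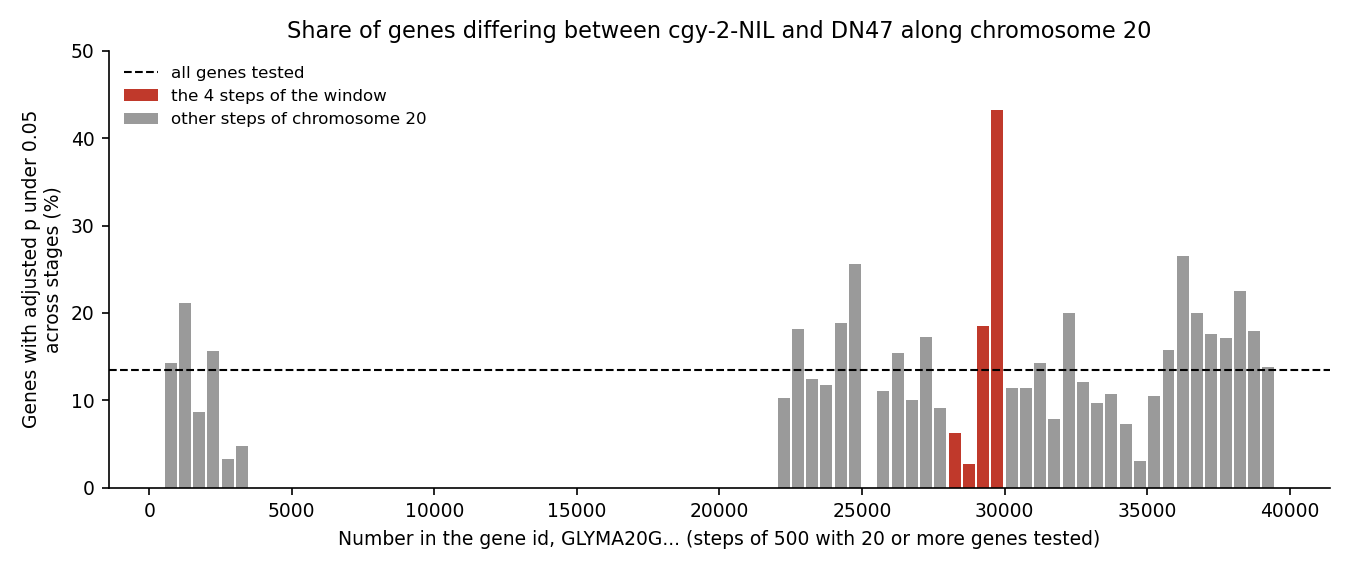
Percentage of genes with an adjusted p under 0.05 for the line difference across stages, in steps of 500 numbers of the gene id along chromosome 20 (steps with 20 or more genes tested). Red bars are the 4 steps that hold the members, at 6.25%, 2.78%, 18.5% and 43.2%, grey bars are the other steps, and the dashed line is the 13.5% of all genes tested.

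In the step from 29500 to 29999 the 16 members did not move 1 way. There were 11 that were higher in cgy-2-NIL, with log2 differences across stages of 0.32 to 1.14, and 5 that were lower, GLYMA20G29500, GLYMA20G29721, GLYMA20G29770, GLYMA20G29820 and GLYMA20G29920. The sign was the same at all 5 stages in 12 of the 37 members of this step. Neighbouring members shared the sign of their difference across stages in 68 of 131 adjacent pairs (51.9%), against 51.7% of such pairs over all chromosomes.

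GLYMA20G29500 had 0 counts in each of the 10 cgy-2-NIL libraries and was detected in each of the 10 DN47 libraries. All of its 346 counts were from DN47, so it met the minimum of 100 counts through that line alone, and a gene at 0 in cgy-2-NIL can be a member only where DN47 is higher. Its counts in the DN47 libraries were 78 and 71 in the youngest seeds (18 DAF), 51 and 42 a stage later (25 DAF) and 31 and 16 at the third stage (35 DAF). Older DN47 seeds gave 5 and 17 counts (50 DAF), then 19 and 16 counts (55 DAF). The lines therefore did not overlap at any stage, and the DN47 level was itself low, with 0.884 and 0.806 RPKM at 18 DAF, its highest stage. Since a count of 0 allows up to 3 counts per library, GLYMA20G29500 was at least 31.0-fold lower in cgy-2-NIL in seeds of 18 DAF and at least 20.4-fold lower in those of 25 DAF. The same limit was 9.92-fold for 35 DAF, 4.6-fold for 50 DAF and 5.93-fold for 55 DAF. Over all libraries the limit was at least 10.6-fold lower. The fitted difference across stages, not this limit, had an adjusted p of 0.000125 in edgeR's quasi-likelihood test. The stage calls had adjusted p of 0.000543 to 0.00577, and the one at 50 DAF was lost without the second DN47 library of that stage (adjusted p = 0.0618). Among the 40721 genes tested it was the only gene with 0 counts in each cgy-2-NIL library and reads in each DN47 library. On the same terms 1 gene showed the opposite.

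**Figure D3:**
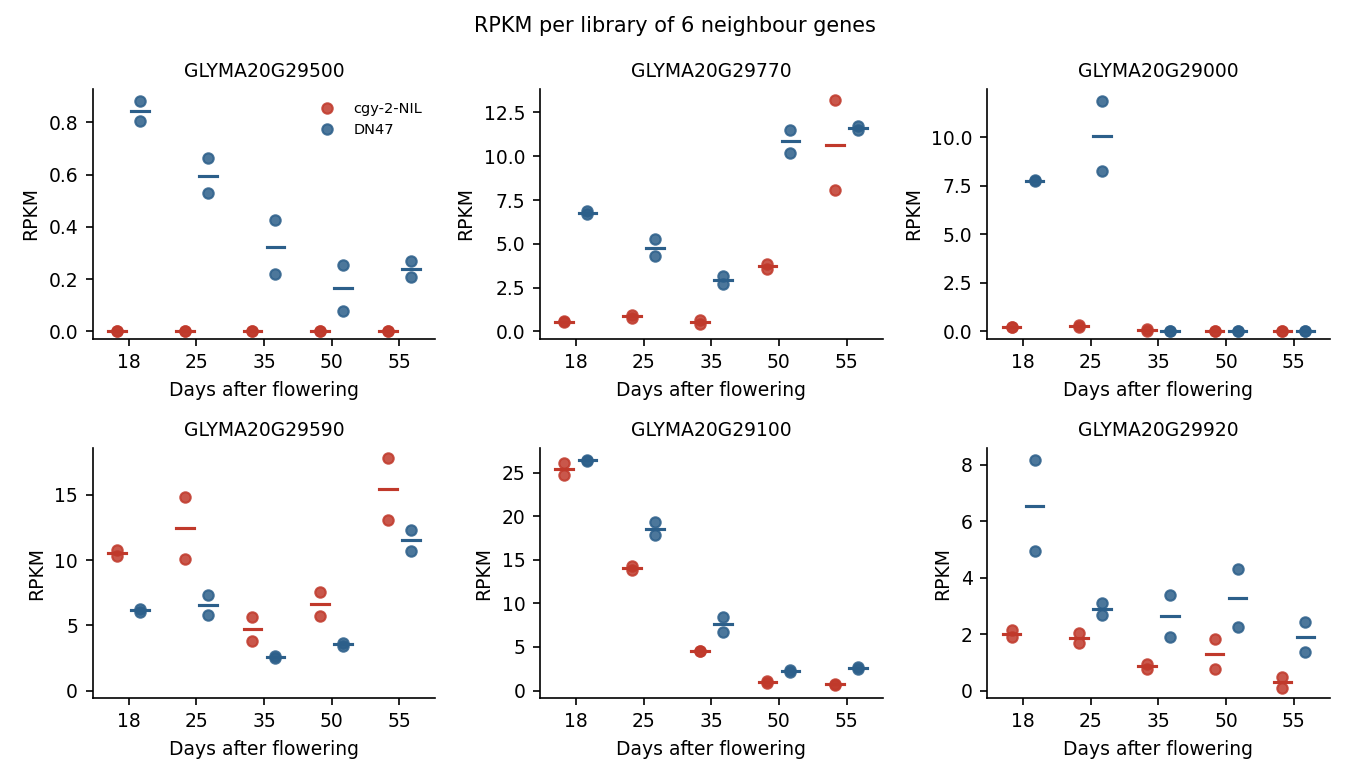
RPKM of 6 members in each library against days after flowering, with cgy-2-NIL in red on the left and DN47 in blue on the right of each stage (points are the 2 libraries, bars their mean). GLYMA20G29500 lies at 0 in cgy-2-NIL throughout, GLYMA20G29000 and GLYMA20G29770 are far lower in cgy-2-NIL at 18 and 25 DAF, GLYMA20G29590 is higher in cgy-2-NIL at every stage, and the lines draw apart with age in GLYMA20G29100.

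GLYMA20G29770 was lower in cgy-2-NIL at the first 4 stages and at the DN47 level at the last. It had 0.511 and 0.578 RPKM in cgy-2-NIL at 18 DAF, against 6.85 and 6.71 RPKM in DN47, a 12.6-fold lower level (log2 difference -3.65 ± 0.23 SE, adjusted p = 1.08e-06). Its level was 5.89-fold lower in cgy-2-NIL at 25 DAF, 6.23-fold lower at 35 DAF and 3.09-fold lower at 50 DAF, and all 4 stage calls held in every alternative tried. At 55 DAF it had 13.2 and 8.06 RPKM in cgy-2-NIL, against 11.5 and 11.7 RPKM in DN47, where the libraries overlapped (log2 difference 0.04 ± 0.18). The line difference of GLYMA20G29770 changed with stage (adjusted p of the interaction = 1.95e-06).

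GLYMA20G29590 was higher in cgy-2-NIL at each stage by a like amount. At 18 DAF it had 10.8 and 10.3 RPKM in cgy-2-NIL, against 6.05 and 6.23 RPKM in DN47, and at 25 DAF 10.1 and 14.8 RPKM in cgy-2-NIL, against 5.82 and 7.36 RPKM in DN47. At 35 DAF the values were 5.67 and 3.79 RPKM in cgy-2-NIL, against 2.49 and 2.66 RPKM in DN47, and at 50 DAF 5.75 and 7.54 RPKM in cgy-2-NIL, against 3.45 and 3.63 RPKM in DN47. In the oldest seeds, of 55 DAF, they were 13.1 and 17.8 RPKM in cgy-2-NIL, against 10.7 and 12.3 RPKM in DN47. Both lines followed the same course, with the lowest level at 35 DAF, and their libraries did not overlap at any stage. Across stages GLYMA20G29590 was 1.68-fold higher in cgy-2-NIL (log2 difference 0.74 ± 0.09 SE, adjusted p = 0.000173), with stage differences between 0.60 and 0.84, and the interaction with stage did not pass the test (adjusted p = 0.902). Across stages the difference lay between 0.69 and 0.79 in every alternative, while each of its 4 stage calls, at 25 to 55 DAF, was lost without 1 library, with adjusted p of 0.103 to 0.246. These libraries were the second of cgy-2-NIL or the first of DN47 at 25 and 55 DAF, the first of cgy-2-NIL or either of DN47 at 35 DAF, and the second of either line at 50 DAF.

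GLYMA20G29820 was the lower counterpart of small, steady size. It had 25.0 and 23.8 RPKM in cgy-2-NIL at 18 DAF, against 28.4 and 27.6 RPKM in DN47, and 9.39 and 7.82 RPKM in cgy-2-NIL at 55 DAF, against 15.2 and 13.9 RPKM in DN47. Over the stages GLYMA20G29820 was 1.35-fold lower in cgy-2-NIL (log2 difference -0.44 ± 0.07, adjusted p = 0.00185 in edgeR), with -0.40 as the smallest difference and 0.00644 as the highest adjusted p over the alternatives. GLYMA20G29920 was lower by more at a lower level. It had 25 and 28 counts in cgy-2-NIL at 18 DAF, against 88 and 53 counts in DN47, and 1 and 5 counts in cgy-2-NIL at 55 DAF, against 21 and 13 counts in DN47. Over the stages GLYMA20G29920 was 2.85-fold lower (log2 difference -1.51 ± 0.24, adjusted p = 0.00142). GLYMA20G29721 was 2.13-fold lower across stages (log2 difference -1.09 ± 0.23, adjusted p = 0.00701), with 1 and 10 counts in cgy-2-NIL at 55 DAF against 16 and 25 counts in DN47.

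Among the members of this step that were higher in cgy-2-NIL, GLYMA20G29520 was one of the 5 most abundant members. It had 104 and 99.7 RPKM in cgy-2-NIL at 18 DAF, against 78.5 and 89.9 RPKM in DN47, and 204 and 278 RPKM in cgy-2-NIL at 55 DAF, against 116 and 124 RPKM in DN47. The libraries did not overlap at any stage, and the difference was 1.42-fold across stages (log2 0.51 ± 0.11, adjusted p = 0.00794) and 2.26-fold at 55 DAF (adjusted p = 7.28e-06). GLYMA20G29831 was 1.46-fold higher across stages (log2 0.55 ± 0.11, adjusted p = 0.00486) and 2.25-fold higher at 55 DAF, with 10.2 and 10.3 RPKM in cgy-2-NIL against 5.26 and 5.02 RPKM in DN47. GLYMA20G29690, a member with 3 to 56 counts per library, was 2.2-fold higher across stages (log2 1.14 ± 0.23, adjusted p = 0.00612). GLYMA20G29750 had 11.5 and 11.6 RPKM in cgy-2-NIL at 25 DAF, against 4.63 and 5.65 RPKM in DN47, a log2 difference of 1.09 ± 0.19 (adjusted p = 0.00345, or 0.0795 without the first DN47 library of 25 DAF). At 35 DAF the log2 difference of GLYMA20G29750 was 1.19 (adjusted p = 0.00931), a call lost without the first cgy-2-NIL library or either DN47 library of that stage (adjusted p = 0.0667 to 0.0705). GLYMA20G29990, the last id of the window, was 1.36-fold higher across stages (log2 0.44 ± 0.11, adjusted p = 0.0187), but 0.35 with an adjusted p of 0.055 when 55 DAF was left out.

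The step from 29000 to 29499 held the other member that was close to absent from cgy-2-NIL. GLYMA20G29000 had 8 and 9 counts in cgy-2-NIL at 18 DAF, against 248 and 249 counts in DN47, and 7 and 13 counts in cgy-2-NIL at 25 DAF, against 230 and 344 counts in DN47. From 35 DAF on, no library of either line had more than 4 counts. Summed over its libraries it had 42 counts in cgy-2-NIL, against 1072 in DN47, so it too met the minimum of counts through DN47 alone. GLYMA20G29000 was thus 35.5-fold lower at 18 DAF (log2 -5.15 ± 0.40, adjusted p = 4.32e-05) and 37.0-fold lower at 25 DAF (log2 -5.21 ± 0.39, adjusted p = 6.55e-05), and both calls held in every alternative. Its line difference across stages was called by edgeR (log2 -4.72, adjusted p = 0.000561) and not by DESeq2 (log2 -2.03, adjusted p = 0.149).

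In GLYMA20G29100 the lines drew apart with age. At 18 DAF the gene had 26.1 and 24.7 RPKM in cgy-2-NIL, against 26.5 and 26.3 RPKM in DN47, and at 55 DAF 0.775 and 0.657 RPKM in cgy-2-NIL, against 2.66 and 2.47 RPKM in DN47. Its level declined in both lines, and further in cgy-2-NIL. The log2 differences of GLYMA20G29100 were -0.08, -0.48, -0.89, -1.28 and -1.67 in stage order, the last with an adjusted p of 7.88e-07, and the interaction had an adjusted p of 0.000115. The call at 25 DAF was lost without any 1 of the 4 libraries of that stage (log2 differences of -0.47 to -0.50). The call at 50 DAF was lost in an edgeR fit to the 4 libraries of that stage (log2 -1.30, adjusted p = 0.0772). Those at 35 and 55 DAF held in every alternative. GLYMA20G29111, next to it, was 1.82-fold lower across stages (log2 -0.87 ± 0.19, adjusted p = 0.00892). GLYMA20G29040 was 1.29-fold higher across stages (log2 0.37 ± 0.09, adjusted p = 0.0117), with 39.9 and 51.8 RPKM in cgy-2-NIL at 50 DAF against 24.0 and 26.4 RPKM in DN47.

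Several members of this step crossed over, being higher in cgy-2-NIL in younger seeds and lower in older ones. GLYMA20G29230 had 12.0 and 11.6 RPKM in cgy-2-NIL at 25 DAF, against 3.57 and 3.57 RPKM in DN47, and 0.231 and 0.427 RPKM in cgy-2-NIL at 55 DAF, against 1.14 and 0.811 RPKM in DN47. It was 3.13-fold higher in the seeds of 25 DAF (adjusted p = 0.000308) and 2.26-fold higher in those of 35 DAF (adjusted p = 0.000653), but 2.59-fold lower in those of 55 DAF (adjusted p = 0.000615), and these 3 calls held in every alternative. GLYMA20G29080 had 85.7 and 90.8 RPKM in cgy-2-NIL at 18 DAF, against 32.7 and 27.8 RPKM in DN47, 2.86-fold higher (adjusted p = 0.00188), and 0.836 and 0.754 RPKM in cgy-2-NIL at 55 DAF, against 2.14 and 1.81 RPKM in DN47. That last difference, 2.2-fold lower (adjusted p = 0.00946), was not called without the second cgy-2-NIL library (adjusted p = 0.0644) or the first DN47 library (adjusted p = 0.0577) of 55 DAF. GLYMA20G29270 followed the same order, with a log2 difference of 0.80 at 25 DAF and of -2.23 ± 0.27 at 55 DAF (adjusted p = 5.62e-06), where the first was lost without the second cgy-2-NIL library of 25 DAF (adjusted p = 0.174) or either DN47 library (adjusted p = 0.216 and 0.0733). For these 3 members the interaction of line and stage had adjusted p of 5.59e-06 to 0.000105.

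**Figure D4:**
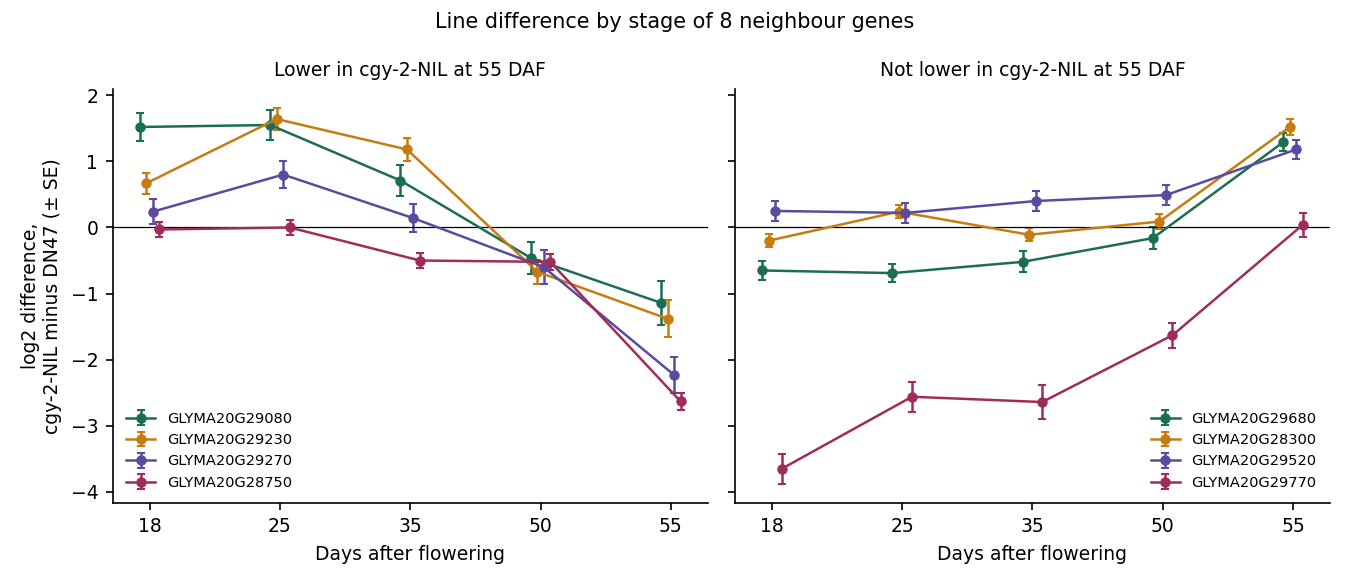
Fitted log2 difference, cgy-2-NIL minus DN47, with its standard error, against days after flowering, for 4 members lower in cgy-2-NIL at 55 DAF (left) and 4 that were not (right). On the left GLYMA20G29080, GLYMA20G29230 and GLYMA20G29270 lie above 0 at 25 DAF and below 0 at 55 DAF, and GLYMA20G28750 stays within 0.52 of 0 until 50 DAF and then lies at -2.63, and on the right every line is highest at 55 DAF.

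The opposite order was seen in GLYMA20G29680. It had 2.13 and 2.21 RPKM in cgy-2-NIL at 25 DAF, against 3.57 and 3.04 RPKM in DN47, and 6.47 and 5.60 RPKM in cgy-2-NIL at 55 DAF, against 2.68 and 2.84 RPKM in DN47. The log2 difference of GLYMA20G29680 was -0.69 ± 0.14 in younger seeds, of 25 DAF (adjusted p = 0.00887), but 1.29 ± 0.14 in seeds of 55 DAF (adjusted p = 1.75e-06). Its interaction of line and stage had an adjusted p of 8.03e-06. The first of these was lost without the second cgy-2-NIL library (adjusted p = 0.0854) or the first DN47 library (adjusted p = 0.172) of 25 DAF. GLYMA20G29090 was higher at 55 DAF alone among its calls, with 168 and 219 counts in cgy-2-NIL against 46 and 60 counts in DN47 (log2 1.85 ± 0.30, adjusted p = 9.78e-05). GLYMA20G29200 was 5.13-fold higher at 50 DAF and 4.16-fold higher at 55 DAF, on 6 to 74 counts per library, and the call at 50 DAF was lost without the second DN47 library of that stage (log2 1.92, adjusted p = 0.0671) and in a fit to the 4 libraries of the stage (adjusted p = 0.0872). GLYMA20G29410, 3.27-fold higher at 25 DAF, and GLYMA20G29011, 2.25-fold lower at 35 DAF, were called at 1 stage each (adjusted p = 0.0392 and 0.0096), and both calls were lost without the first DN47 library of their stage (adjusted p = 0.349 and 0.108). The first was also lost without any 1 of 7 other libraries and in DESeq2 (adjusted p = 0.0588), and the second without the first cgy-2-NIL library of 35 DAF (adjusted p = 0.122) and in a fit to the 4 libraries of the stage (adjusted p = 0.0653).

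None of the 10 members nearest to the alpha-subunit genes was called across stages with all libraries in the fit. On the lower side these were GLYMA20G28550, GLYMA20G28571, GLYMA20G28590, GLYMA20G28600 and GLYMA20G28631, and on the upper side GLYMA20G28680, GLYMA20G28700, GLYMA20G28720, GLYMA20G28730 and GLYMA20G28740. Their adjusted p across stages lay between 0.125 and 0.879 in edgeR. In the alternatives 1 of them was called once, GLYMA20G28720 without the first cgy-2-NIL library of 50 DAF (log2 0.35, adjusted p = 0.0247). A p above the threshold does not show that the lines were alike: for GLYMA20G28571, with at most 51 counts in a library, the log2 difference was 0.10 ± 0.35, and for GLYMA20G28740, with 363 to 2329 counts, it was -0.06 ± 0.08.

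At least 1 stage was called for 4 of these 10, against 59.6% of all genes. GLYMA20G28590 had 9.92 and 9.03 RPKM in cgy-2-NIL at 55 DAF, against 6.50 and 7.22 RPKM in DN47, 1.55-fold higher (adjusted p = 0.00358), and this call held in every alternative. GLYMA20G28720 had 126 and 106 RPKM in cgy-2-NIL at 55 DAF, against 79.7 and 80.8 RPKM in DN47 (1.63-fold, adjusted p = 0.0173), and was not called without the first cgy-2-NIL library of 55 DAF (adjusted p = 0.108) or either DN47 library (adjusted p = 0.0917 and 0.0697). GLYMA20G28700 was 1.95-fold lower at 35 DAF (adjusted p = 0.00549) and 1.49-fold higher at 55 DAF (adjusted p = 0.0175). The first was lost without the first cgy-2-NIL library (adjusted p = 0.0565) or the first DN47 library (adjusted p = 0.083) of 35 DAF, and the second without the second library of either line at 55 DAF (adjusted p = 0.19 and 0.147), with upper-quartile scaling (adjusted p = 0.052) and in a fit to the 4 libraries of the stage (adjusted p = 0.0707). GLYMA20G28680 was called at 55 DAF on 0 and 0 counts in cgy-2-NIL against 2 and 2 counts in DN47, and since both lines were at or under 3 counts per library no fold is given. That call (adjusted p = 0.0405) was lost in DESeq2 (adjusted p = 0.0775), with no filter (adjusted p = 0.0501) and without any 1 of the 4 libraries of 55 DAF (adjusted p = 0.0799 to 0.145). At 55 DAF 13 of the 36 members of the step from 28500 to 28999 were called, against the 46.1% of all genes.

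A larger change beside the locus came at GLYMA20G28750. It had 13.9 and 13.7 RPKM in cgy-2-NIL at 18 DAF, against 14.1 and 13.7 RPKM in DN47, and 0.604 and 0.497 RPKM in cgy-2-NIL at 55 DAF, against 4.23 and 3.47 RPKM in DN47. The lines overlapped in young seeds, and at 55 DAF GLYMA20G28750 was 6.21-fold lower in cgy-2-NIL (log2 -2.63 ± 0.13, adjusted p = 9.56e-10), with an interaction at an adjusted p of 2.83e-07. GLYMA20G28300 differed the other way at that stage, with 9.66 and 10.8 RPKM in cgy-2-NIL against 3.75 and 4.25 RPKM in DN47 (2.88-fold higher, adjusted p = 7.28e-08). GLYMA20G28820, the only member of its step called across stages, was 1.52-fold higher (log2 0.61 ± 0.15, adjusted p = 0.0146) and 2.78-fold higher at 55 DAF (adjusted p = 7.12e-06). Without 55 DAF its difference across stages was 0.38, with an adjusted p of 0.0552. GLYMA20G28850 was 3.71-fold higher at 50 DAF, with 106 and 244 counts in cgy-2-NIL against 41 and 27 counts in DN47 (adjusted p = 0.00211, or 0.104 in a fit to the 4 libraries of that stage).

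GLYMA20G28530, the id of the window that the study picked for quantitative PCR, was detected up to 35 DAF only. It had 4.50 and 5.02 RPKM in cgy-2-NIL at 25 DAF, against 1.42 and 2.91 RPKM in DN47, 2.09-fold higher (adjusted p = 0.0338). At 18 DAF it had 4.98 and 5.31 RPKM in cgy-2-NIL, against 4.79 and 4.87 RPKM in DN47 (adjusted p = 0.982), and at 50 and 55 DAF it had 0 counts in every library of both lines. The study describes the genes it picked for PCR as differing between the lines at all 5 stages. It reports up or down patterns by PCR that kept to 1 direction throughout. With no reads at 50 and 55 DAF, the counts show no difference of GLYMA20G28530 at those stages. The call at 25 DAF was lost without any 1 of 7 libraries, among them the first DN47 library of 25 DAF (log2 0.68, adjusted p = 0.313), and in a fit to the 4 libraries of the stage (adjusted p = 0.0511).

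Levels among the members spanned several orders of magnitude. The mean over the 20 libraries ran from 0.0962 to 1207 RPKM with a median of 3.75 RPKM, against a median of 3.88 RPKM over all genes tested, and 31 members averaged under 1 RPKM, 66 between 1 and 10 RPKM and 35 at 10 RPKM or more. The members took 0.22 to 1.08% of all counts of a library. The highest level belonged to GLYMA20G28550, which lies just below the alpha-subunit genes in number and held 30.8% of all member counts. GLYMA20G28550 rose over seed development in DN47 (adjusted p = 1.44e-12 for stage in edgeR). It had 0.166 and 0.334 RPKM in cgy-2-NIL at 18 DAF, against 0.476 and 0.340 RPKM in DN47, and 5284 and 6394 RPKM in cgy-2-NIL at 55 DAF, against 4902 and 5042 RPKM in DN47. No stage was called for it, and its difference across stages was -0.05 ± 0.19 (adjusted p = 0.879).

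The other abundant members, GLYMA20G28440, GLYMA20G28780, GLYMA20G29520 and GLYMA20G29990, varied less with age. GLYMA20G28440 had 271 and 249 RPKM in cgy-2-NIL at 55 DAF, against 164 and 153 RPKM in DN47 (1.84-fold higher, adjusted p = 1.97e-05), and 148 and 161 RPKM in cgy-2-NIL at 18 DAF, against 152 and 143 RPKM in DN47. GLYMA20G28780 had 66.6 and 57.4 RPKM in cgy-2-NIL at 50 DAF, against 87.3 and 80.1 RPKM in DN47 (1.43-fold lower, adjusted p = 0.011), a call lost without the second cgy-2-NIL library (adjusted p = 0.103) or the first DN47 library (adjusted p = 0.138) of 50 DAF and in a fit to the 4 libraries of the stage (adjusted p = 0.218).

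Nearly every member changed with age in DN47: 122 of 132 had an adjusted p under 0.05 over the stages (92.4%, against 88.6% of all genes). By mean level in DN47, 78 members peaked at 18 DAF (59.1%, against 53.5% of all genes tested) and 20 members at 25 DAF (15.2%, against 19.6%). A further 28 members peaked at 55 DAF (21.2%, against 18.9%), and the others at 35 DAF (4 members) or 50 DAF (2 members). The line difference depended on stage in 63 members (47.7%, against 44.5% of all genes), and in 27 members once 55 DAF was left out (16.6% of all genes in that fit).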

How the data were processed

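RNA of developing soybean seeds was sequenced in 20 libraries (10 groups of line and stage, 2 biological replicates each). The authors deposited a table of raw read counts per gene, made with HTSeq, and a table of RPKM values, which the authors computed from these counts, the gene length and the total count of the library. The aligner and the handling of strand are not given in the sources used here, so reads of overlapping genes cannot be told apart. Both tables list 57274 genes, and none of these ids matched the 59048 genes of the reference table, so no gene name, coordinate or sequence is printed.

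Counts were fitted with edgeR 4.0.16 in R 4.3.3 (filterByExpr, TMM factors, robust quasi-likelihood test). A model of the 10 groups gave the line difference at each stage, the line-by-stage interaction and the course in DN47, and a model of line plus stage gave the difference across stages. P-values were adjusted by Benjamini-Hochberg over 40721 genes. Genes at 0 in a line were given a limit from 3 counts per library, which covers counting error only. The alternatives were DESeq2 1.42.0, limma-voom 3.58.1, other scalings, filters and thresholds, a replicate block, leaving out each library or 55 DAF, and fits to 1 stage. The fit was tested on simulated data.

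Members and lists were chosen with earlier results of these data known. Named members were the 5 nearest ids on either side of the alpha-subunit genes, the 15 with the smallest p across stages, those called at all 5 stages, the 2 largest called differences in each direction at each stage (mean of 20 or more counts, no overlap of the lines), the 5 with the smallest interaction p, the 5 highest in mean RPKM, those at 3 or fewer counts in each library of 1 line with a mean of 20 or more in the other, and GLYMA20G28530. The ranking of steps over all chromosomes was added after seeing the data.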

Additional observations from a re-analysis of the deposited data

Results flagged for a closer look

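The line difference changed with stage in 22 of the 40 named members, by the 4 interaction terms of line and stage tested together in edgeR with Benjamini-Hochberg adjustment (some were named for this test or for a difference at 1 stage, so this count is no share to set beside all genes). Among members below 29000 the adjusted p of the interaction was 2.83e-07 for GLYMA20G28750, 6.32e-06 for GLYMA20G28300, 0.000735 for GLYMA20G28440, 0.00175 for GLYMA20G28820 and 0.00181 for GLYMA20G28700. It was 0.0188 for GLYMA20G28850, 0.0226 for GLYMA20G28780 and 0.0416 for GLYMA20G28590.

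Between 29000 and 29499 the adjusted p was 5.59e-06 for GLYMA20G29230, 5.81e-05 for GLYMA20G29270, 0.000105 for GLYMA20G29080 and 0.000115 for GLYMA20G29100. In the same step it was 0.00503 for GLYMA20G29410, 0.00506 for GLYMA20G29200, 0.00924 for GLYMA20G29090, 0.0113 for GLYMA20G29040 and 0.018 for GLYMA20G29000. From 29500 on it was 1.95e-06 for GLYMA20G29770, 8.03e-06 for GLYMA20G29680, 0.00116 for GLYMA20G29831, 0.0069 for GLYMA20G29520 and 0.0361 for GLYMA20G29750.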

How the results depend on the processing

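No called difference of a named member changed direction. Differences across stages that were not called changed sign in 6 of the 40 named members (as in GLYMA20G28571, -0.13 to 0.40, and GLYMA20G28550, -0.23 to 0.03), and so did 41 of their 200 stage differences, none of them called (as in GLYMA20G29770 at 55 DAF, -0.33 to 0.33). The numbers of members changing over stages in DN47 stayed within 1.5 times the reported count in every alternative. In brackets is the share of all genes called in the same fit. At 18 DAF 13 members were called by limma-voom (2.5%) and 38 in a fit to the 4 libraries of that stage (12.4%), and such a fit called 1 member at 50 DAF (0.232%). With an adjusted p under 0.01 the calls were 8 at 25 DAF (2.27%), 16 at 35 DAF (5.66%), 16 at 50 DAF (6.73%), 12 across stages (3.16%) and 38 for the interaction (27.7%). Where a log2 difference above 1 in size was required beside the threshold of 0.05, they were 9 at 25 DAF (3.27%), 10 at 35 DAF (4.09%), 12 for 50 DAF (6.16%), 31 for 55 DAF (24.9%) and 7 across stages (2.53%). Without 55 DAF the interaction was called in 27 members (16.6%). The share of members was below that of all genes across stages in 1 alternative (10 or more counts in every library) and at 55 DAF in 4 (both DESeq2 settings, the fold minimum and without the first DN47 library). Leaving out 1 library in turn gave 4 to 10 members at 18 DAF, 4 to 26 at 25 DAF, 8 to 32 for 35 DAF, 15 to 37 for 50 DAF, 42 to 64 in seeds of 55 DAF, 20 to 25 across stages and 48 to 71 for the interaction. The libraries whose loss lowered a count of members by over 1.5 times were 3 of 18 DAF, 3 of 25 DAF, 3 of 35 DAF and 1 of 50 DAF. At 18 DAF they were the first and second of cgy-2-NIL and the first of DN47. At 25 DAF they were the second of cgy-2-NIL and both of DN47. At 35 DAF they were the first of cgy-2-NIL and both of DN47, and at 50 DAF the second of cgy-2-NIL. The share of all genes called at the stage fell in each of these fits as well. The cause was not tested.

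Upper-quartile scaling moved the median log2 difference of all genes at 55 DAF by -0.11, and other scalings and stages by 0.03 at most. Of the 74 stage calls of the named members, 28 held in every alternative, 43 were lost without at least 1 library and 3 only under another fit. Fitting each stage by itself lost 19. Of members 29000 to 29499, limma-voom called 8 of 27 tested across stages, against 14.9% of all genes. With 10 or more counts required in every library 3 of 13 tested were called, against 21.0% of all genes.

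Across genes, deviations of same-numbered libraries of the lines correlated at -0.19, 0.15, -0.05, 0.00 and 0.07 from 18 to 55 DAF. With 2 libraries per line and stage, these values cannot decide whether the replicate numbers pair the lines. With the replicate block the calls were 8, 20, 27, 25 and 63 from 18 to 55 DAF, 22 across stages and 61 for the interaction, which changed no count by 1.5 times. In that fit 1.17, 7.92, 14.6, 16.1 and 46.0% of all genes were called from 18 to 55 DAF. Across stages it was 11.7% of all genes, and for the interaction 44.0%.

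Libraries totalled 18492047 to 30555808 counts, and 31 members were under 1 RPKM on average. Their standard errors across stages varied, as with 0.14 in GLYMA20G29541 and 0.62 in GLYMA20G29210. Precision was not compared between these and other members.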
